A study of Mus musculus with 19 samples.

Results

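The aryl hydrocarbon receptor (AHR) and 5 genes around it were followed in hepatocytes of young and old mice: the receptor Ahr, its partner Arnt, its repressors Ahrr and Tiparp, and the cytochrome P450 genes Cyp1a1 and Cyp1a2. They were taken by symbol from a table of 24537 genes, and all 6 were found. Polyadenylated RNA was sequenced from perfused hepatocytes of wild-type males (strain C57BL/6J), with 10 young libraries labelled 5 months and 9 old libraries labelled 24 months. Each library was taken as 1 mouse, although the labels give no animal number. Mice were culled on 2 days, and both days held both ages (5 young and 5 old mice on the first, 5 young and 4 old on the second). Mice of an age shared a birth date in the labels, so young mice were 140 days old at the first cull and 163 at the second, and old mice 719 and 742 days. All were untreated as far as the labels say, and each is named by its library number. Means are given ± SD over the 10 young and 9 old libraries or, within a cull day, over 5 libraries (4 for old mice on the second day).

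AHR is a ligand-activated transcription factor of the bHLH-PAS family. It waits in the cytosol in a complex with the chaperone HSP90, and a ligand such as dioxin or a tryptophan derivative sends it into the nucleus, where it pairs with ARNT and binds DNA at a short element with the core GCGTG. In the liver its best known targets are the Cyp1a genes: Cyp1a2 is made by unexposed hepatocytes, mainly around the central vein, whereas Cyp1a1 is known for very low levels until an inducer arrives. Ahrr and Tiparp are targets that act back on the receptor.

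Counts over genes ran from 17381439 to 20287628.5 per library. Hepatocyte markers were abundant in every library (8 genes, 88200 to 195000 CPM summed, where CPM is the standard count scaled by library size, adjusted by TMM factors). Markers of other liver cells were present too and differed with age: 12 of 12 macrophage, 9 of 12 endothelial and 10 of 11 stellate cell genes were higher in old mice, as were 16.3% of all genes tested. Mice 1184, 1186 and 1188, young and culled on the first day, stood apart by acute phase genes (28600 to 53900 CPM summed, against 5800 to 7120 in the other young mice), and old mouse 1187 by the highest macrophage markers (3310 CPM summed, against a median of 476 in old mice). In bulk RNA of this kind, fewer cells of a type and less RNA per cell cannot be told apart.

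Cyp1a1 and Cyp1a2 lie next to each other, back to back, on chromosome 9 of mm10. In the deposited table Cyp1a2 spans 57676937 to 57683655 on the minus strand and Cyp1a1 57687928 to 57703824 on the plus strand. These spans leave 4272 bases between them. The Cyp1a1 start used below, next to chr9:57697363-57697612, lies inside its span and so farther from Cyp1a2. The coding sequences of the 2 genes share an identical stretch of 137 bases in exon 2, at chr9:57700283-57700419 in Cyp1a1 and chr9:57682210-57682346 in Cyp1a2 (GENCODE M21 on GRCm38, read on each gene's own strand). It is printed because it is longer than the 100-base reads named in the labels, so that single reads inside it belong to either gene.
Shared by Cyp1a1 and Cyp1a2: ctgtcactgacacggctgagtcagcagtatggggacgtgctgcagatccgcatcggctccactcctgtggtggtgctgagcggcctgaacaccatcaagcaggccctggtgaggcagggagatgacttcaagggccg
Of the 1841 windows of 100 bases in the Cyp1a2 transcript, 38 (2.06%) also occur in Cyp1a1. How the deposited counts treated such reads is not given in the sources used here, so the very low Cyp1a1 counts may hold reads of Cyp1a2.

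The 250 bases before the transcription start were read for the members that RefSeq's table holds (5 of 6, GRCm38.p6, all but Ahr). On both strands, the core GCGTG was found 3 times before Ahrr, once each before Cyp1a1, Arnt and Tiparp, and not before Cyp1a2. A window with the core is common: 28.2% of 32851 windows of the same length held it. The longer form TNGCGTG, which contains the core, was found before Ahrr, and 4.1% of windows held it. The windows of Cyp1a2, the member that differed with age, of its neighbour Cyp1a1 and of Ahrr, which held the most matches, are shown 5′ to 3′ on the gene's strand, with the core in capitals. They are chr9:57683656-57683905 on the minus strand, chr9:57697363-57697612 on the plus strand and chr13:74292332-74292581 on the minus strand.
Cyp1a2: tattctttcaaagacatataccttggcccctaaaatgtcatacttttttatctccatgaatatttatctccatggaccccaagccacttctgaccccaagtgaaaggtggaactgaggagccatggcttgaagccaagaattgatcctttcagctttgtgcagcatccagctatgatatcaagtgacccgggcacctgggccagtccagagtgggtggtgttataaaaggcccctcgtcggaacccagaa
Cyp1a1: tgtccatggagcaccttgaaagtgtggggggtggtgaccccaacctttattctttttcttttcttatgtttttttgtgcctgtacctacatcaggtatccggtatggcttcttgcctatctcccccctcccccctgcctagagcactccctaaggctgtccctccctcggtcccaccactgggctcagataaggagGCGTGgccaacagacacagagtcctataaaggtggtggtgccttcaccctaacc
Ahrr: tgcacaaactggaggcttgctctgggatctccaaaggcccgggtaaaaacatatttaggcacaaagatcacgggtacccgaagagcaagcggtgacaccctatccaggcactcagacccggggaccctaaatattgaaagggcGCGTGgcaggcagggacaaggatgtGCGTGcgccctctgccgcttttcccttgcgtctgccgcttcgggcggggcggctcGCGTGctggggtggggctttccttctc
In Cyp1a1 the core begins 54 bases before this start, which lies inside the gene span of the deposited table. In Ahrr it begins 107, 82 and 27 bases before the start. A match to these letters is a description of the sequence. Bases farther from these starts were not read, including the rest of the stretch between Cyp1a2 and Cyp1a1. The missing core before Cyp1a2 therefore holds for its 250 bases alone.

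The 6 members spanned several orders of magnitude. Per length, as CPM per kilobase of transcript, levels over all 19 libraries were 178 ± 69.0 for Cyp1a2, 6.82 ± 0.759 for Arnt, 4.93 ± 2.34 for Ahr, 1.91 ± 1.92 for Tiparp, 0.184 ± 0.111 for Cyp1a1 and 0.0237 ± 0.0372 for Ahrr (SD, n = 19). Cyp1a2 was thus the only abundant member, 26.0-fold above Arnt by these means. The order between neighbours held in all 19 libraries except that Arnt was above Ahr in 17 and Cyp1a1 above Ahrr in 18. The difference between the means was smaller than the SD of the more variable gene for Arnt and Ahr and for Tiparp and Cyp1a1. Cyp1a1, the inducible enzyme, had only 2 to 23 counts per library, and Ahrr had 0 to 17. Neither passed the filter on low counts, and the other 4 members did.

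Cyp1a2, the enzyme that oxidises caffeine and aromatic amines, was lower in old mice. Its level was 274.4, 414 and 608 CPM (lowest, median and highest) in the 10 young libraries and 139.5, 205 and 349 CPM in the 9 old libraries. Of the 9 old mice, 7 lay below every young mouse, and 9 of the 10 young mice lay above every old mouse. Young mice averaged 429.7 ± 96.1 CPM (n = 10) and old mice 229 ± 61.4 CPM (n = 9), a fall of 46.7%. With cull day in the model, the log2 fold change was -0.91 (SE 0.145, edgeR quasi-likelihood test, Benjamini-Hochberg adjusted p = 0.00029 over 12269 genes). Of all genes tested, 30.9% passed in this comparison, 16.3% higher and 14.5% lower in old mice, and Cyp1a2 was the 1 member of 4 tested that did. It was also the only one with an unadjusted p under 0.05, as 42.3% of all genes had.

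The fall of Cyp1a2 was seen on both cull days. On the first day young mice had 491 ± 88.4 CPM and old mice 238 ± 78.7, with no overlap between ages, and 3.95% of all genes tested were lower without overlap that day. On the second day they had 368 ± 58.5 CPM and 218 ± 38.6 CPM, and old mouse 1242 at 274.8 CPM just reached young mouse 1237 at 274.4 CPM. The log2 fold change was -1.05 (edgeR adjusted p = 0.0401) and -0.75 (edgeR adjusted p = 0.00359) on the days alone, and the interaction of age and cull day was 0.29 (SE 0.286, edgeR adjusted p = 0.919). In the interaction 0 of 12269 genes passed in edgeR (0% called), with 799 (6.51%), none of the 4 tested members among them, at an unadjusted p under 0.05, and 10 passed in DESeq2 and 349 in limma-voom. The fall of Cyp1a2 was also -0.93 without young mice 1184, 1186 and 1188 and -0.87 without old mouse 1187, and -0.86 (edgeR adjusted p = 0.00663) with the mean of 35 macrophage, endothelial and stellate markers as a covariate. That mean was 2.67 to 4.25 in young and 2.87 to 6.09 in old libraries on the log2 scale.

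Cyp1a2 is one of the genes that mark the central vein side of the liver lobule, so it was set against 15 other pericentral genes. Of these, 6 were lower and 0 higher in old mice, against 14.5% lower and 16.3% higher over all genes, with a median log2 fold change of -0.25, against -0.0034 over all genes tested. The mean log2 CPM of the 15 genes differed by -0.23 between old and young mice, averaged over cull days (exact two-sided permutation p = 0.00246, relabelling mice within cull days in 31752 ways). The log2 excess of Cyp1a2 over that mean was 2.54 ± 0.259 in the young group against 1.83 ± 0.381 in the old, which differ by -0.69 averaged over days (exact two-sided permutation p = 0.000315). Here too 7 of 9 old mice were below every young mouse. Cyp1a2 therefore fell by more than the average gene of its zone, on the first cull day (-0.85, exact p = 0.0159) as on the second (-0.53, exact p = 0.0317). Among the zone's genes, Oat, which breaks down ornithine, fell by 0.59 on the log2 scale (SE 0.141, edgeR adjusted p = 0.00503). Gulo, of vitamin C synthesis, fell by 0.43 (SE 0.0995, edgeR adjusted p = 0.00437), and Rhbg, an ammonium transporter, fell by 1.03 from 3.08 to 1.52 CPM (SE 0.287, edgeR adjusted p = 0.0121). Oat, Gulo and Rhbg had the smallest p of the list. Glul (-0.25, edgeR adjusted p = 0.307) and Cyp2e1 (-0.25, edgeR adjusted p = 0.203) did not pass. Tbx3 (0.54, edgeR adjusted p = 0.123), Axin2 (0.31, edgeR adjusted p = 0.351) and Rnf43 (0.08, edgeR adjusted p = 0.78) had values above 0 and did not pass.

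**Figure D1:**
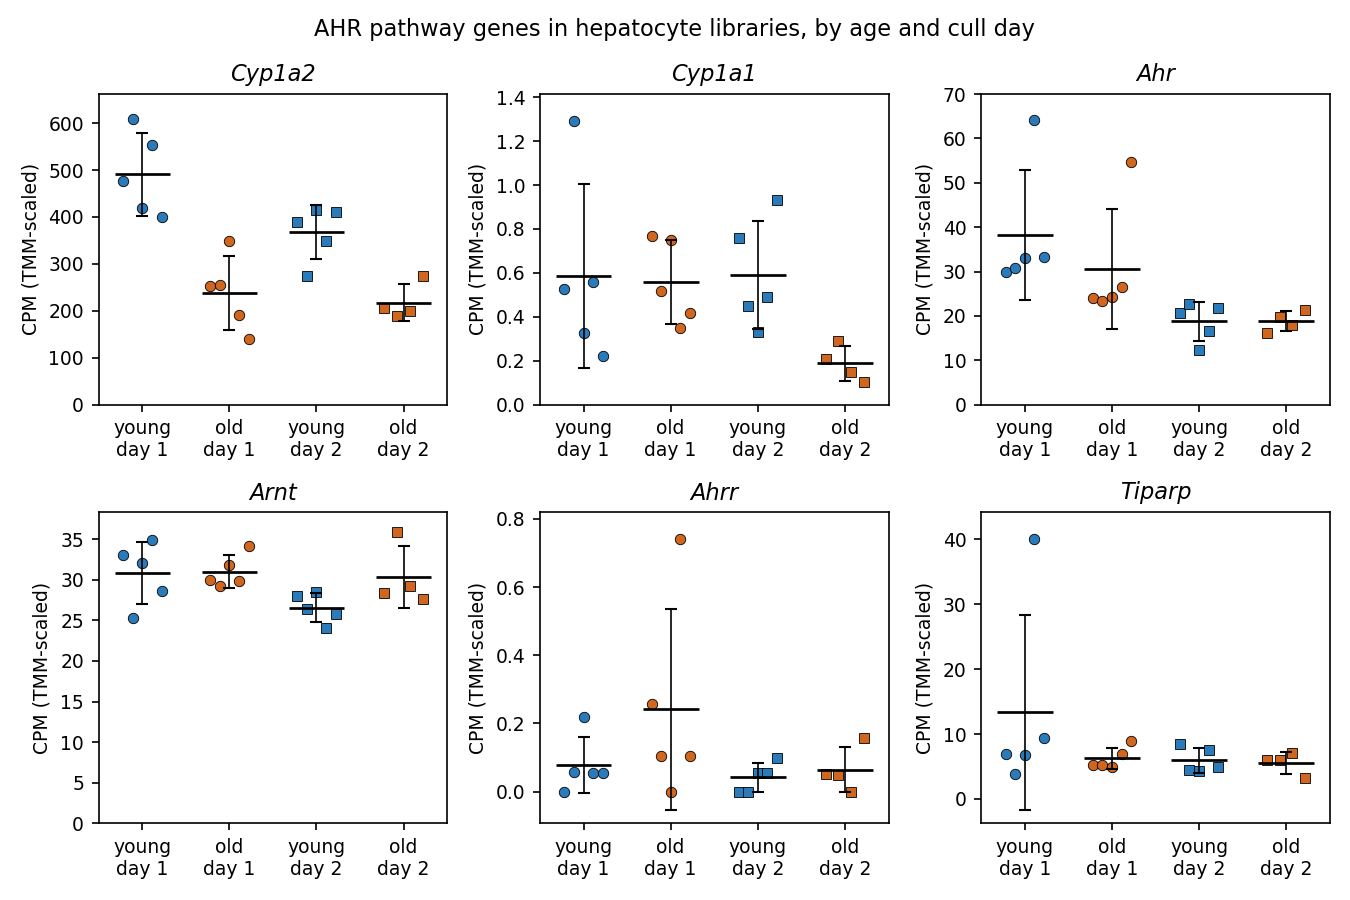
Level of each member in CPM (vertical axes, linear and starting at or below 0) in the 4 groups of age and cull day; points are libraries, horizontal lines means and bars SD. Cyp1a2 is lower in old mice on both days, Ahr is lower on the second day at both ages, and single libraries stand high for Tiparp (40.0 CPM), Ahr (64.2 and 54.6 CPM) and Ahrr (0.741 CPM).

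Cyp1a1 did not pass by age over all libraries. Young libraries held 4, 9.25 and 23 counts (lowest, median and highest) and old libraries 2, 8.5 and 15 counts. In CPM the means were 0.588 ± 0.324 and 0.395 ± 0.244, and 6 of 9 old mice were below the young median. Averaged over cull days, the log2 CPM of old minus young mice was -0.57 (exact two-sided permutation p = 0.0775). It was -0.88 (exact permutation p = 0.0068) without young mice 1184, 1186 and 1188, and -0.68 (exact permutation p = 0.0266) without 1188 alone. Without the filter, edgeR gave -0.74 (SE 0.366, adjusted p = 0.144). On the first day, young mice averaged 0.584 ± 0.419 CPM and old mice 0.561 ± 0.191, a log2 difference of 0.09 (exact permutation p = 0.857). On the second day, young mice averaged 0.592 ± 0.246 CPM and all 4 old mice lay below every young mouse, at 0.188 ± 0.0806 CPM, a difference of -1.22 (exact permutation p = 0.0159). Of the genes tested, which leave out Cyp1a1, 7.84% were lower without overlap on that day. Those 4 libraries held 2 to 6 counts. The difference between days was -1.31 (exact permutation p = 0.0357, adjusted p = 0.125 over 7 such comparisons, relabelling cull days within ages), and the interaction in edgeR without the filter was -1.58 (unadjusted p = 0.0275, adjusted p = 0.838).

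Whether the neighbours moved together was asked by their ratio per length. Cyp1a2 exceeded Cyp1a1 by 9.89 ± 0.573 on the log2 scale in young mice and by 9.47 ± 0.724 in old mice, a difference of -0.36 averaged over days (exact two-sided permutation p = 0.247). On the first day the ratio was lower in old mice by 1.18 (difference -1.18, exact permutation p = 0.00794, the smallest that day can give), where the log2 CPM of Cyp1a2 differed by -1.09 and that of Cyp1a1 by 0.09. On the second day it was 0.46 (exact permutation p = 0.246). The 2 days differed by 1.65 (exact permutation p = 0.00337, adjusted p = 0.0236 over 7 comparisons), a comparison chosen after the values were seen, which rests on the low counts of Cyp1a1. That test relabelled cull days within ages and so assumes no effect of cull day at either age. Across libraries the log2 CPM of the pair gave a Pearson's r of 0.483 (p = 0.0379 by permutation, 0.151 when adjusted over 15 pairs of members). Spearman's rho was 0.426 (permutation p = 0.0696, adjusted p = 0.466). Leaving out libraries 1182 and 1242, which lay farthest from the Cyp1a1 median, r was 0.388. It was 0.426 within young and 0.279 within old mice, and 0.319 and 0.692 within the cull days.

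Ahr, the receptor itself, did not pass by age but separated the cull days. Its level was 12.2, 26.3 and 64.2 CPM (lowest, median and highest) in young and 16.2, 23.5 and 54.6 CPM in old libraries, which overlapped. The log2 fold change by age was -0.17 (SE 0.183, edgeR adjusted p = 0.501). It lay between -0.32 (without mouse 1189) and -0.03 (without mouse 1186) when single libraries were left out, and was 0.0056 on the second cull day alone and 0.0046 without young mice 1184, 1186 and 1188. By cull day, the 10 libraries of the first day ranged from 23.5 to 64.2 CPM and the 9 of the second from 12.2 to 22.7 CPM, with no overlap. Only 6 of 12269 genes (0.0489%) were lower on the second day without overlap, Ahr among them, and 0.0408% were higher. The log2 fold change of the second day against the first was -0.87 (SE 0.185, edgeR adjusted p = 0.0106), and 12.3% of genes passed this comparison, 6.55% lower and 5.72% higher. Ahr was also the only tested member with an unadjusted p under 0.05 by cull day, as 30% of all genes had.

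In young mice Ahr averaged 38.3 ± 14.6 CPM on the first day and 18.8 ± 4.36 CPM on the second. In old mice it averaged 30.6 ± 13.5 CPM and 18.9 ± 2.26 CPM. The second-day fold change was -1.02 in young mice alone (edgeR adjusted p = 0.0489) and -0.69 in old mice alone (unadjusted p = 0.0214, adjusted p = 0.432 in edgeR). Without young mice 1184, 1186 and 1188, all from the first day, it was -0.70 (unadjusted p = 0.00127, adjusted p = 0.0846 in edgeR), and 0 genes then passed by cull day in edgeR. The acute phase list had a median log2 fold change of -1.46 by cull day over 14 genes, against -0.03 over all genes. Of the 14, 0 passed, against 6.55% lower and 5.72% higher over all genes. The part of this list in the fall of Ahr was not tested. Second-day mice were also 23 days older, which cannot be told apart from the day itself.

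**Figure D2:**
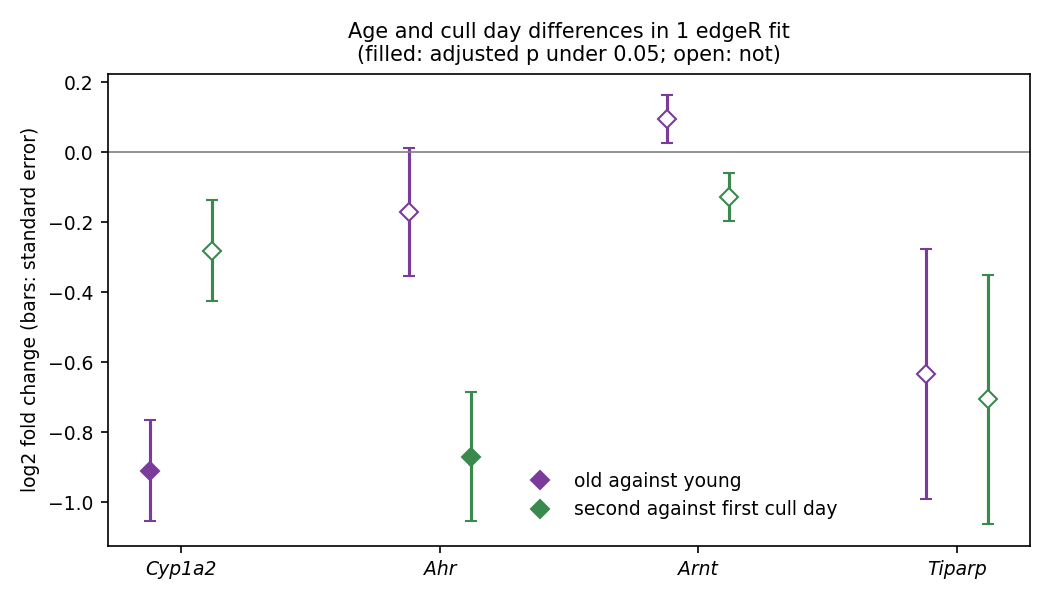
Log2 fold changes of the 4 tested members (vertical axis) for old against young mice and for the second against the first cull day, from the same edgeR fit; bars are standard errors and filled points passed an adjusted p of 0.05. Cyp1a2 passed by age (-0.91) and not by day (-0.28), and Ahr by day (-0.87) and not by age (-0.17).

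Arnt, the partner that AHR shares with the hypoxia-inducible factors, varied least among the members relative to its mean. It ranged from 24.1 to 34.9 CPM in young and from 27.6 to 35.9 CPM in old libraries, with means of 28.7 ± 3.58 and 30.7 ± 2.76. The log2 fold change was 0.10 by age (SE 0.0688, edgeR adjusted p = 0.308) and -0.13 by cull day (SE 0.0689, edgeR adjusted p = 0.215). By age it was 0.012 and 0.19 within the first and second cull day. Only old mouse 1238 was above all young mice, without which the age value was 0.056 (edgeR adjusted p = 0.52), and 4 young mice were below all old mice.

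Ahrr, which competes with AHR for ARNT, was close to absent. It was listed at 0 in 5 libraries and reached 3 counts in 4 (1181, 1184, 1187 and 1242), where 3 counts correspond to 0.131 to 0.175 CPM. The highest value, 17 counts (0.741 CPM), was in old mouse 1187, the library with the highest macrophage, endothelial, stellate and lymphocyte markers, whose part in it was not tested. The log2 CPM difference by age was 0.42 (exact two-sided permutation p = 0.209), and 0.21 without mouse 1187 (exact permutation p = 0.405). Without the filter edgeR gave 1.19 (SE 0.685, adjusted p = 0.214).

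Tiparp, an ADP-ribosyltransferase that modifies AHR, had 1 very high library. Young mice ranged over 3.81, 6.86 and 40.0 CPM (lowest, median and highest) and old mice over 3.16, 5.93 and 8.86 CPM. The 40.0 CPM were in young mouse 1186, 5.90-fold above the median of the other young mice, which reached 9.32 CPM at most. The log2 fold change by age was -0.63 (SE 0.356, edgeR adjusted p = 0.183) and lay between -0.73 and -0.10 when single libraries were left out, the last without mouse 1186. By cull day it was -0.71 (SE 0.357, edgeR adjusted p = 0.188), and -0.18 without mouse 1186. The same mouse also had the highest Ahr (64.2 CPM), the highest acute phase sum (53900 CPM) and, within the range of young mice, 553.5 CPM of Cyp1a2. Old mouse 1189 had the next highest Ahr (54.6 CPM, against 16.2 to 26.5 in the other old mice) together with the highest Tiparp of the old group (8.86 CPM) and the lowest Cyp1a2 of all libraries (139.5 CPM).

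These 2 mice carried the relation between Ahr and Tiparp. Over 19 libraries r was 0.635 (permutation p = 0.00525, adjusted p = 0.0787 over 15 pairs) and rho 0.339 (permutation p = 0.155, adjusted p = 0.466), and r was 0.175 without them, which were also the 2 farthest from the median of Ahr. Between Cyp1a2 and its receptor no relation passed the test, with r = 0.141 (permutation p = 0.564, adjusted p = 0.77) and rho = 0.277 (permutation p = 0.25, adjusted p = 0.536) over all libraries, 0.531 within young mice (permutation p = 0.108) and -0.446 within old mice (exact permutation p = 0.23). Within the cull days it was 0.0732 and -0.145, and without the 2 libraries farthest from the median of Cyp1a2 it was 0.469. Of the 15 pairs of members, 0 passed the adjusted threshold, and 4 had an unadjusted p under 0.05 for r: Ahr with Tiparp, Ahr with Arnt (0.509), Cyp1a1 with Cyp1a2, and Arnt with Tiparp (0.464). Without mice 1186 and 1189, r was 0.22 for Ahr with Arnt and 0.205 for Arnt with Tiparp, and the last was 0.642 without the libraries farthest from the Arnt median (1238 and 1243).

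**Figure D3:**
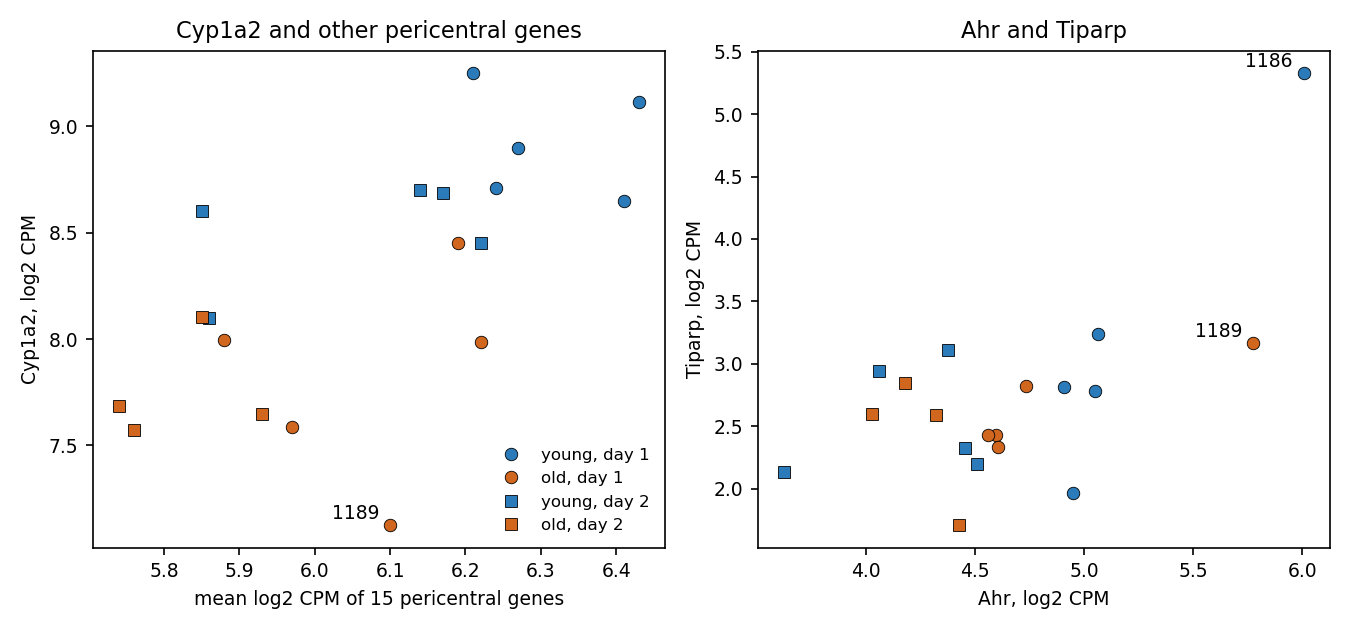
Left, log2 CPM of Cyp1a2 against the mean log2 CPM of 15 pericentral genes; right, log2 CPM of Tiparp against Ahr; each point is a library, coloured by age and shaped by cull day. At like pericentral levels most old mice lie lower for Cyp1a2, with 1189 lowest and old mouse 1242 level with young mouse 1237, and on the right mice 1186 and 1189 lie apart from the other 17.

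Genes whose variation was most like that of a member were found by Pearson's r of residuals from the means of age by cull day, over 19 libraries and 11617 genes with a mean of at least 1 CPM, as a description. For Cyp1a2 they were Alkbh7 (0.891), Pla1a (0.876), Dock6 (0.853), F11 (0.844) and Nrn1 (0.828), of which F11, clotting factor XI, also followed it over all libraries (r = 0.835). For Ahr they were Sec23ip (0.81), D10Wsu102e (0.808), Tgm2 (0.796), Pzp (0.793) and Sept5 (0.791). These genes were chosen by their likeness to Ahr, so high values in mice 1186 and 1189 follow in part from that choice. Tgm2 was at 442 and 2283 CPM in 1186 and 1189, against a mean of 287 over all libraries. D10Wsu102e was at 40.3 and 20.7 CPM against 18.0, and Pzp at 9650 and 12820 CPM against 6210. The means include both mice. For Cyp1a1, at its low counts, they were Slc2a8 (0.814), Gaa (0.773), Gtf2ird1 (0.758), Ctsf (0.758) and Agtr1a (0.757).

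Other known targets of AHR were read from 13 listed genes. Of these 10 were tested, with 1 higher and 1 lower in old mice and a median log2 fold change of 0.14, against shares of 16.3% and 14.5% over all genes. Ugdh, which makes the UDP-glucuronic acid used in glucuronidation, fell from 200.1 ± 17.5 CPM to 156 ± 23.9 CPM, or -0.36 in log2 units (SE 0.0837, adjusted p = 0.00451 in edgeR), and 8 of 9 old mice were below every young mouse. Nqo1, a quinone reductase that is also an NRF2 target, rose from 4.21 ± 1.23 to 6.35 ± 2.06 CPM, or 0.59 in log2 units (SE 0.19, adjusted p = 0.025 in edgeR). Gsta1, a glutathione transferase, had 0.62 (SE 0.386, edgeR adjusted p = 0.228), with old mouse 1187 at 51.4 CPM against an old mean of 16.4 and a young mean of 11.6 CPM. Cyp1b1, the CYP1 enzyme known from non-hepatocyte cells, and the inducible dehydrogenase Aldh3a1 held at most 2 counts and 1 count in any library.

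The receptor is held and served by many proteins. Of 16 listed genes of the chaperone complex, its turnover and nuclear cofactors, all tested, 5 were lower and 1 higher in old mice, against 14.5% lower and 16.3% higher over all genes (median log2 fold change -0.11). Both HSP90 genes fell: Hsp90aa1, the inducible form, from 248 ± 98.7 to 137 ± 22.5 CPM, with a fold change of -0.86 in log2 units (SE 0.202, adjusted p = 0.00485 in edgeR), and Hsp90ab1, the constitutive form, by -0.37 (SE 0.0881, edgeR adjusted p = 0.00493). All 9 old mice were below the young median for both, and 4 and 7 of them below every young mouse. Ncoa1, a coactivator, had -0.42 by age (SE 0.105, edgeR adjusted p = 0.00736) and, like Ahr, was lower on the second cull day (-0.49, edgeR adjusted p = 0.011). By cull day 3 of the 16 were lower and 0 higher, against 6.55% and 5.72% of all genes.

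The kynurenine route turns tryptophan into compounds that include AHR ligands. Of its 12 listed genes 11 were tested, 6 lower and 1 higher in old mice, against 14.5% lower and 16.3% higher over all genes, with a median log2 fold change of -0.39. Tdo2, the hepatocyte dioxygenase that starts the route, fell from 1367 ± 291 to 775 ± 168 CPM, or -0.79 in log2 units (SE 0.111, adjusted p = 0.000114 in edgeR), with 8 of 9 old mice below every young mouse. Aadat, which transaminates kynurenine, fell from 85.8 ± 11.0 to 48.1 ± 8.57 CPM, or -0.84 in log2 units (SE 0.104, adjusted p = 4.39e-05 in edgeR), and no old mouse overlapped a young one, as for 0.725% of all genes. Kynu, kynureninase, had -0.42 (SE 0.0748, edgeR adjusted p = 0.000708). By cull day 4 genes of the route were higher on the second day and 0 lower, against 5.72% and 6.55% of all genes. Tdo2 was among the 4 (0.43, edgeR adjusted p = 0.0219).

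Relatives of AHR and ARNT were read from 13 other bHLH-PAS genes, of which 8 were tested, 3 lower and 1 higher in old mice, against 14.5% lower and 16.3% higher over all genes (median log2 fold change -0.28). All tested genes of this list except Hif1a and Epas1 belong to the clock. Per2, Clock and Per1 had the smallest p. Per2 fell by 0.68 on the log2 scale (SE 0.175, edgeR adjusted p = 0.00799), Per1 by 0.61 (SE 0.208, edgeR adjusted p = 0.0335) and Clock by 0.42 (SE 0.131, edgeR adjusted p = 0.0205). The 1 that passed as higher in old mice, Npas2, had 1.57 and 3.15 CPM in young and old mice (1.03 in log2 units, SE 0.369, adjusted p = 0.0395 in edgeR). It was named after its values were seen. Per3 (-0.49, edgeR adjusted p = 0.113) and Arntl (0.20, edgeR adjusted p = 0.447) did not pass, nor did Hif1a and Epas1. Of 11 targets of the hypoxia-inducible factors, which use ARNT as AHR does, 9 were tested, 2 higher and 0 lower, against 14.5% lower and 16.3% higher over all genes (median 0.01). Ndrg1, a stress-induced gene, rose from 9.19 ± 2.90 to 26.8 ± 3.23 CPM, or 1.54 in log2 units (SE 0.166, adjusted p = 1.36e-05 in edgeR), and all 9 old mice were above every young mouse, as for 0.994% of all genes. Adm, a vasodilator peptide, rose by 1.61 from 0.386 CPM (SE 0.37, edgeR adjusted p = 0.00403), highest in old mouse 1187 at 3.14 CPM, and Vegfa had 0.28 (SE 0.13, edgeR adjusted p = 0.102). Endothelial, stellate and macrophage markers were higher in old mice too, and their part in these rises was not tested.

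**Figure D4:**
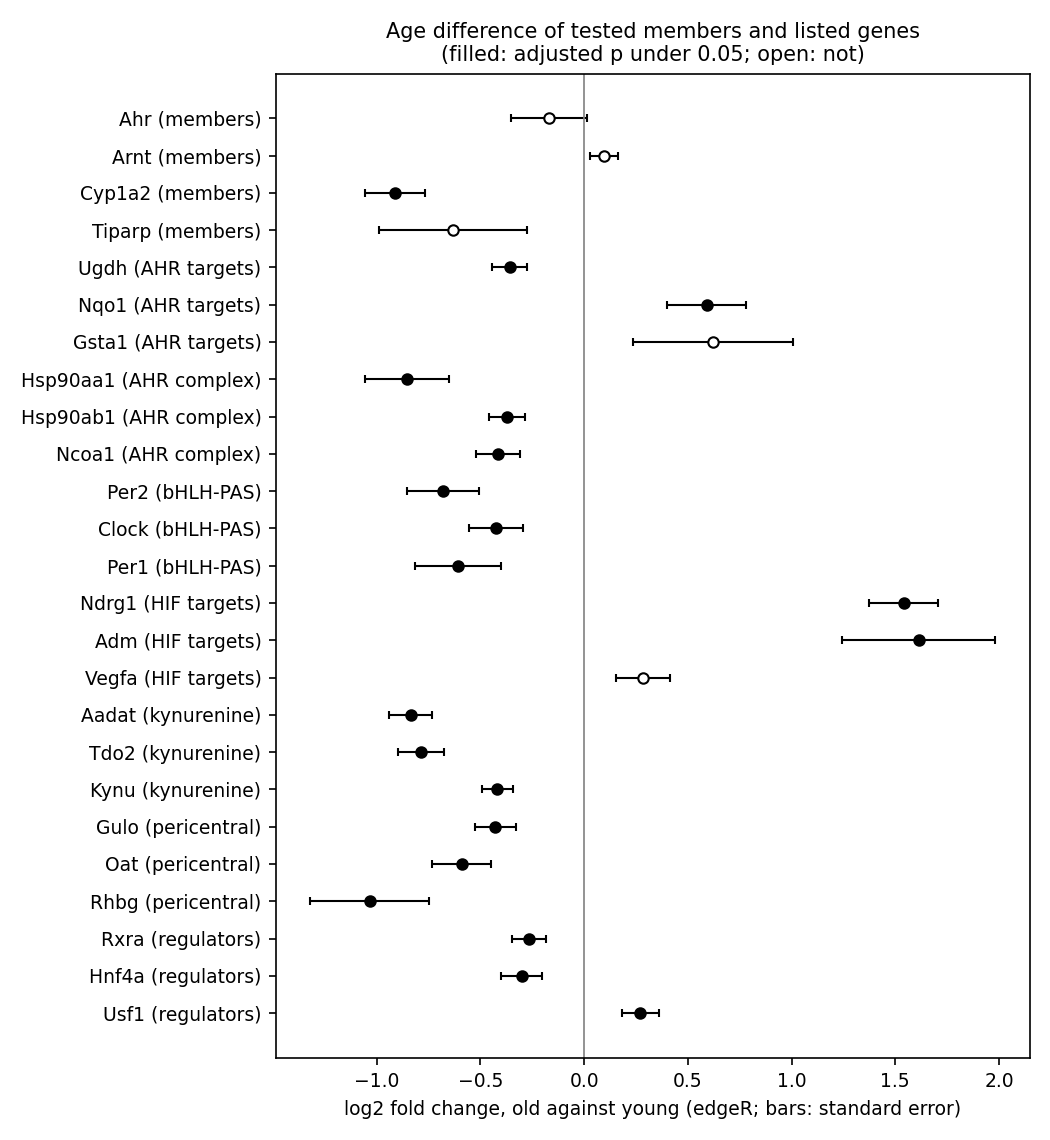
Log2 fold change of old against young mice (horizontal axis, bars standard error) for the 4 tested members and the 3 listed genes with the smallest p in each of 7 lists; filled points passed an adjusted p of 0.05 in edgeR. Rhbg (-1.03), Cyp1a2 (-0.91), Hsp90aa1 (-0.86), Aadat (-0.84) and Tdo2 (-0.79) lie to the left, and Ndrg1 (1.54) and Adm (1.61) farthest to the right.

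Heme, the cofactor of P450 enzymes, and their electron donors gave 12 listed genes, all tested, of which 3 were lower and 1 higher in old mice, against 14.5% lower and 16.3% higher over all genes (median log2 fold change -0.14). Cpox had -0.37 (SE 0.101, edgeR adjusted p = 0.0116) and Ppox 0.30 (SE 0.0935, edgeR adjusted p = 0.0218), both enzymes of heme synthesis that thus moved in opposite directions. Of 14 liver transcription factors known to act on P450 genes, 3 were lower and 1 higher, against 14.5% lower and 16.3% higher over all genes (median -0.13). Hnf4a, a master regulator of hepatocytes, had -0.30 (SE 0.0984, edgeR adjusted p = 0.0268), with 8 of 9 old mice below every young mouse and the ninth above them all. Rxra, the partner of many nuclear receptors, had -0.27 (SE 0.0827, edgeR adjusted p = 0.0206), and Usf1 0.27 (SE 0.0891, edgeR adjusted p = 0.0279).

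Of the acute phase list, 0 of 14 genes passed by age in edgeR, and 1 of them, Crp, had an unadjusted p under 0.05, against 30.9% and 42.3% of all genes. Crp had a fold change of -0.38 in log2 units (SE 0.154, adjusted p = 0.0651 in edgeR), Hpx 0.61 (SE 0.339, edgeR adjusted p = 0.179) and Hp 0.49 (SE 0.416, edgeR adjusted p = 0.389). The summed list was 5800, 6920 and 53900 CPM (lowest, median and highest) in young and 8330, 15100 and 28000 CPM in old mice, and every old mouse was above the young mice other than 1184, 1186 and 1188 (5800 to 7120 CPM). Its part in the fall of Cyp1a2 was not tested.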

How the data were processed

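The authors deposited 1 table of raw estimated counts per gene, a multiple of 0.5 in each cell, written per the file headers by HOMER's analyzeRepeats.pl over exons of RefSeq transcripts on mm10. STAR and HOMER are named in the submitters' processing notes, and versions, strand setting and the treatment of reads with several matches are not given in the sources used here. Counts (29.2% of cells not whole) were rounded for the tests. Of 24537 genes, 12269 passed edgeR's filterByExpr (minimum count 10). Age and cull day were tested in 1 additive model with edgeR 4.0.16 (quasi-likelihood, TMM) in R 4.3.3, with Benjamini-Hochberg adjustment over all genes tested and a threshold of 0.05. Standard errors were derived as |log2 fold change| / sqrt(F). Single values used exact permutation of log2 CPM (prior count 2) within cull days, and pairs 100000 permutations, or exact ones within old mice and the second day. Differences of the age effect between cull days in log2 CPM were tested by relabelling cull days within ages. That relabelling assumes no effect of cull day at either age. Alternatives used DESeq2 1.42.0 and limma 3.58.1. The labels give each library a birth date and cull day but no animal number; were libraries not separate animals, p-values would measure only the spread between libraries. The edgeR fit was also run on simulated data, with an outcome that is not reported here.

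The members and lists were chosen with earlier results of these data known. Named genes are the 6 members, the top 3 by p of every pathway list, and the 5 genes most like Cyp1a1, Cyp1a2 and Ahr (predicted genes left out). Others were named after their values were seen. Some items that this rule names are not reported here.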

Additional observations from a re-analysis of the deposited data

Results flagged for a closer look

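Old mouse 1189 lay far from the other old mice for Ahr, at 5.77 on the log2 CPM scale. Its gap to the nearest old mouse was 0.595 of the range of the group, above the limit of 0.493 for 9 samples. Young mouse 1186 lay far from the other young mice for Tiparp, at 5.33 on the log2 CPM scale, with a gap of 0.623 of the range against a limit of 0.466 for 10 samples. Of 16 groups looked at in this way, chance would flag about 1 in 20.

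The ratio of Cyp1a2 to Cyp1a1 changed with age by amounts that differed between cull days by 1.65 in log2 units (p = 0.00337 by exact permutation, 0.0236 when adjusted over 7 comparisons). The change was -1.18 on the first day and 0.46 on the second, and the comparison was chosen after the values were seen. Old libraries of the second day held 2 to 6 counts of Cyp1a1.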

How the results depend on the processing

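The fall of Cyp1a2 with age passed under all 12 other settings (log2 fold change -1.05 to -0.75, edgeR, DESeq2 or limma adjusted p 2.3e-08 to 0.0401) and in all 19 fits that left out 1 mouse (-0.99 to -0.83). Its fall relative to the pericentral list passed under the 6 settings tried for it (-0.85 to -0.53) and in 19 tests that left out 1 mouse (-0.75 to -0.60). The count of 3785 genes by age was 1557 with the other-cell covariate, 450 on the first cull day alone and 2388 on the second. The count of 1506 genes by cull day was 971 without the filter, 258 in young mice alone, 0 in old mice alone and 0 without mice 1184, 1186 and 1188, and 609 to 2335 when single mice were left out. The interaction count of 0 was 10 in DESeq2 and 349 in limma-voom. By cull day, Ahr lost the adjusted threshold in old mice alone (-0.69) and without those 3 young mice (-0.70), and passed in all 19 fits without 1 mouse (-0.91 to -0.73).

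Signs of values that had not passed turned as follows. By age, Ahr was 0.0056 on the second day alone and 0.0046 without the 3 young mice, and Tiparp was 0.020 without them. In the interaction, Cyp1a2 was -0.17 in limma-voom, and without the 3 young mice Ahr was -0.0029 and Tiparp -0.32. Cyp1a1 had 0.086 on the first day alone, -1.22 on the second (exact permutation p = 0.0159) and -0.88 without the 3 young mice (exact permutation p = 0.0068), and -0.68 to -0.42 without single mice, passing without mouse 1188. The ratio of Cyp1a2 to Cyp1a1 had -1.18 on the first day and 0.46 on the second. The causes were not tested. Cyp1a1 and Ahrr are limited by depth, since 3 counts are 0.131 to 0.175 CPM. No paired analysis was possible because the ages share no replicate numbers.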
